A study of Mus musculus with 47 samples.

Results

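The 9 genes described here mark successive steps in the making of cortical neurons, and were chosen by symbol: Sox2, Pax6, Eomes, Neurod1, Tbr1, Bcl11b, Cux1, Reln and Otx1. All 9 of 9 symbols had a row among the 20456 genes counted, and all 9 passed the filter on low counts that left 16892 genes for testing. They were read in 16 libraries of whole embryonic brain at E18.5, with Otx1 also read in lung, among 47 libraries of brain, lung and liver in all. Embryos were homozygous for 1 of 2 CRISPR/Cas9 knock-in alleles of Daxx, which encodes a chaperone of the histone variant H3.3. In the paper's binding tests in cultured cells, the Y130A change abolished binding of Daxx to the chromatin remodeler Atrx, and S226A its binding to H3.3. The paper allows that the loss of Atrx binding may be incomplete, since a faint band remained in some replicates. It also reports more Daxx protein in Y130A and less in S226A than in wild type, in embryonic fibroblasts and E18.5 lung. Both alleles were made in C57BL/6N zygotes, backcrossed to C57BL/6J and present in every cell of the embryo, and each mutant was compared with wild-type embryos of the same litters from heterozygous intercrosses. Brain gave 4 libraries in each of 4 groups: S226A, wild-type littermates of S226A, Y130A and wild-type littermates of Y130A, from 4 litters per allele.

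Cortical neurons arise from radial glia, which express the transcription factors Sox2 and Pax6. Intermediate progenitors switch on Eomes (also named Tbr2), newborn neurons pass through a phase of Neurod1 expression, and the neurons then settle in layers that are filled from deep to superficial. Tbr1, Bcl11b (Ctip2) and Otx1 mark deep layers, Cux1 marks upper layers, and Cajal-Retzius cells at the surface secrete reelin, the product of Reln, an extracellular glycoprotein that guides the placement of arriving neurons. All of these genes are also used outside the cortex: Bcl11b in striatal neurons, Sox2 and Pax6 in other progenitor zones, Neurod1 and Reln in cerebellar granule cells. Whole brain was sequenced, so that fewer cells of a type and less RNA per cell cannot be told apart.

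The 9 genes lie on 6 chromosomes of GRCm38, with exons as annotated in GENCODE M21. The progenitor genes are Sox2 (ENSMUSG00000074637, chr3:34650405-34652461) and Pax6 (ENSMUSG00000027168, chr2:105668900-105697364). Eomes (ENSMUSG00000032446, chr9:118478212-118486132) and Neurod1 (ENSMUSG00000034701, chr2:79452521-79456751) follow them in the lineage. The layer genes are Tbr1 (ENSMUSG00000035033, chr2:61802930-61814114), Bcl11b (ENSMUSG00000048251, chr12:107910403-108003602), Otx1 (ENSMUSG00000005917, chr11:21994764-22002897) and Cux1 (ENSMUSG00000029705, chr5:136248135-136567490), and Reln (ENSMUSG00000042453) spans chr5:21884454-22344702. Counts were made over whole genes, so that the promoters of Cux1 and the other genes with several transcripts were not resolved.

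Sequence upstream of the start site was found in RefSeq (GRCm38.p6) for 8 of the 9 genes. The 250 bases before the starts of Reln and Sox2 are shown because these genes lay farthest apart, in opposite directions, between the wild-type brains of the different litters described below. Each is printed 5′ to 3′ on the strand of its gene, with every CG dinucleotide, which reads the same on both strands and does not overlap itself, in capitals.
Reln, chr5:22344706-22344955, minus strand: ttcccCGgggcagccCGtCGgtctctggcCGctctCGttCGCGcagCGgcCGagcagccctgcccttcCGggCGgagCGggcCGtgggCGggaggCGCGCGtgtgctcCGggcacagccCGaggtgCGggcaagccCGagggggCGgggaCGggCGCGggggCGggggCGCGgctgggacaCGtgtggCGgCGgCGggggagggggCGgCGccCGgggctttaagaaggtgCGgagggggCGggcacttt
Sox2, chr3:34649745-34649994, plus strand: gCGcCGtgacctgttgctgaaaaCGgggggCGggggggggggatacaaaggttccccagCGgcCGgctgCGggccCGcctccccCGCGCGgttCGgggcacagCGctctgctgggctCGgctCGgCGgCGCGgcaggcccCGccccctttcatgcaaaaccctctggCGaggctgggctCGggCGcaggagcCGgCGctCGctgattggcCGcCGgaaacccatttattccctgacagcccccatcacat
The Reln window holds 37 CG dinucleotides, and 2.2% of 32841 windows of this length hold as many. RefSeq places the start of Sox2 just after its window, upstream of the GENCODE start given above. The Sox2 window holds 27, which 8.57% of windows reach, against a median of 6. Windows of the other members ranged from 5 CG dinucleotides at Tbr1 to 22 at Neurod1. DNA methylation was not measured in these libraries, and the counts give no reading of these bases.

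Total counts in brain were 20318413 to 25051861 in the S226A litters and 44523912 to 53050330 in the Y130A litters, so that the groups of 1 allele never overlapped those of the other in depth. Normalized read counts given below are TMM-scaled counts brought to the same library size. A gene was called by the stringent criteria at an adjusted p below 0.01 (edgeR's quasi-likelihood test, Benjamini-Hochberg over all genes tested), a log2 fold change beyond 1 and a standard error (SE) below 1, and by the standard criterion at an adjusted p below 0.05 alone. Daxx itself had mean normalized read counts of 1103 ± 51.5 in S226A brain and 1103 ± 95.8 in the wild-type littermates (SD, n = 4 each). In Y130A brain its mean was 1157 ± 43.6, and in the wild-type brains of those litters 1256 ± 83.6. A point mutation does not remove the transcript, so that these levels do not check the genotypes.

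The first question was whether the S226A allele altered the progenitor and layer genes of the brain. None of the 9 genes differed between S226A brain and wild-type littermates by either criterion, and for all 9 the mutant libraries overlapped the wild-type ones. Across all genes tested, the stringent criteria called 0.124% of genes in this comparison, the standard criterion called 0.243%, and in 2.48% the libraries of the groups did not overlap. Estimated log2 fold changes of the members ran from -0.05 for Neurod1 to 0.12 for Sox2, with a median of 0.01 against 0.00 over all genes. The smallest unadjusted p among them was 0.705 (edgeR), and 6 lay above 0 and 3 below.

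Sox2, the factor that maintains neural stem cells, had normalized read counts of 822, 774, 861 and 1146 in the S226A brains and 824, 901, 798 and 791 in the wild-type ones. The wild-type values lay within the spread of the mutant values, of which the highest stood above the other libraries of these litters. Its log2 fold change was 0.12 (SE 0.32, adjusted p = 1, edgeR). Pax6, which sets the identity of dorsal radial glia, had 916, 1139, 959 and 965 in mutant and 886, 955, 1136 and 996 in wild-type brain. Mutant and wild-type libraries were interleaved over nearly the same range, with a log2 fold change of 0.00 (SE 0.24).

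Eomes, the factor of intermediate progenitors, had 518, 715, 623 and 819 in S226A brain. The wild-type littermates had 624, 696, 744 and 562, all inside the mutant range. Neurod1, a factor of neuronal differentiation, had 509, 469, 455 and 522 in mutant and 408, 459, 592 and 569 in wild-type brain, and the mutant libraries lay within the wild-type range. Their log2 fold changes were 0.03 (SE 0.28) for Eomes and -0.05 (SE 0.18) for Neurod1.

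Among the layer genes, Tbr1, which specifies corticothalamic neurons of layer 6, had 1360, 1196, 1175 and 1255 in S226A brain. Wild-type brains of the same litters had 1497, 1252, 1232 and 1147 of it, with a log2 fold change of -0.04 (SE 0.29). Bcl11b, needed for subcerebral projection neurons of layer 5, had 3693, 3710, 3898 and 4321 in mutant and 4179, 3724, 3865 and 3755 in wild-type libraries. For both genes the ranges of the groups overlapped over most of their length. Cux1, a marker of upper layers, varied least, from 5545 to 6079 in mutant and from 5568 to 5901 in wild-type brain. Otx1, a homeodomain factor of layers 5 and 6 and of the ventricular zone, was the lowest of the 9, with 68.3, 112, 82.8 and 101 in mutant and 94.4, 78.7, 106 and 79.9 in wild-type brain. Reln had 15166, 16070, 15206 and 17098 in S226A brain and 16061, 15780, 16233 and 16863 in the littermates, where the log2 fold change was -0.03 (SE 0.12).

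The fit of all 47 libraries shared 1 estimate of the spread over 3 tissues and gave wider intervals. When only the 8 libraries compared were fitted, SEs of the members ranged from 0.0437 to 0.194, and the 95% intervals of all 9 log2 fold changes together spanned -0.40 to 0.43. A doubling or halving lies outside these intervals for each gene, whereas small changes within them were not detectable, and Otx1, with 64 to 102 reads per library, had the widest interval. This does not hold for every fit. In the fit of all 47 libraries the interval of Otx1 was -1.14 to 1.18, and with DESeq2 the intervals of the 9 genes together spanned -1.78 to 1.69.

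**Figure D1:**
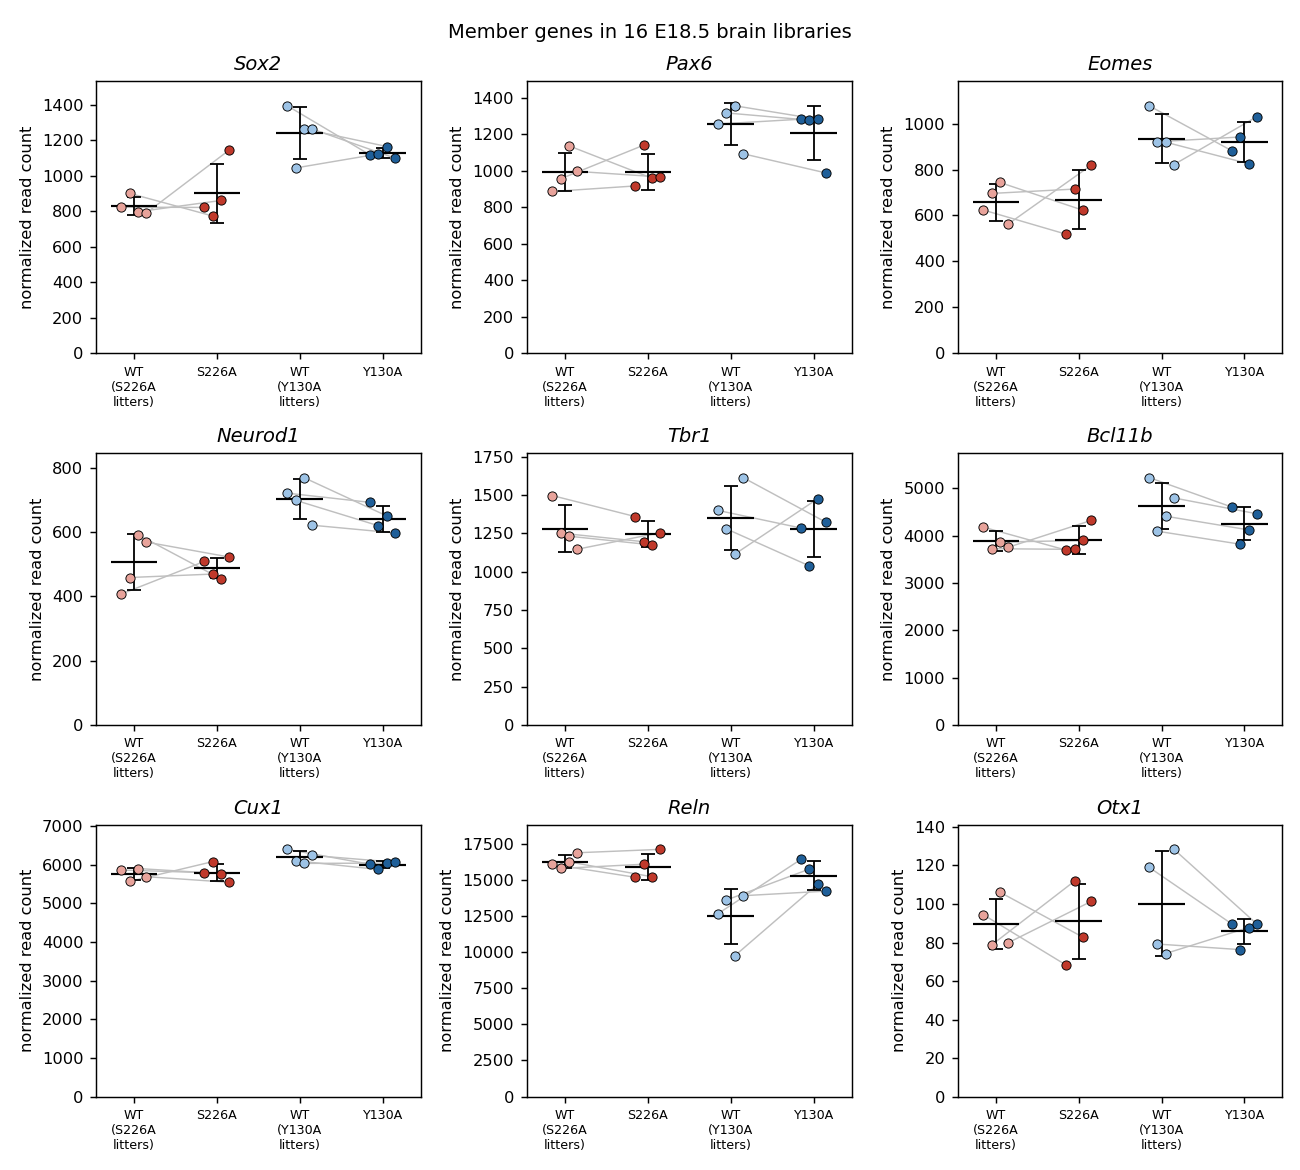
Normalized read counts (y axes, from 0) of the 9 genes in 16 brain libraries of E18.5 embryos, by genotype and litter set (x axes). Points are libraries, lines join littermates, and bars give mean ± SD (n = 4). S226A and wild-type points mix in every panel, Reln is higher in all Y130A libraries than in their wild-type littermates, and Sox2, Eomes and Neurod1 sit higher in both groups of the Y130A litters than in the wild-type brains of the S226A litters.

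The second question was whether the Y130A allele altered these genes. None of the 9 was called in Y130A brain by either criterion, against 0% of all genes by the stringent and 0.00592% by the standard one. Reln was the exception in overlap: its 4 mutant libraries lay above all 4 wild-type libraries, as did those of 2.66% of all genes (4.75% in either direction). Reln had normalized read counts of 16413, 15736, 14689 and 14210 in Y130A brain and 12661, 13596, 9740 and 13894 in the wild-type littermates. The level was higher in the mutant in 4 of 4 litters, and the lowest mutant library stood just above the highest wild-type one. Its log2 fold change was 0.29 (SE 0.12, 95% interval 0.05 to 0.53), with an unadjusted p of 0.0204 and an adjusted p of 1 (edgeR), while 2.22% of all genes had an unadjusted p below 0.05.

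Reln was also the 1 member with a two-sided exact permutation p below 0.05, at 0.0286, the smallest that 4 against 4 libraries can give. Within litters the exact p was 0.125, again the smallest possible with 4 pairs. With littermates as a block in a fit of these 8 libraries, the log2 fold change was 0.30 with an adjusted p of 0.0781 (edgeR), in a fit that called 0.612% of all genes by the standard criterion. The wild-type library at 9740 carried part of the difference, since without it the log2 fold change was 0.19. Some Y130A libraries lay within the range of Reln in the S226A litters, at 15166 to 17098, and the others lay below it. The wild-type libraries of the Y130A litters all lay below that range, and the litter sets also differed in depth.

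The other 8 members had log2 fold changes below 0 in Y130A brain, from -0.22 for Otx1 to -0.02 for Eomes, and the median over all 9 was -0.08 against 0.00 over all genes. Without 1 library, Otx1 ranged from -0.34 to -0.08, Sox2 from -0.22 to -0.08 and Bcl11b from -0.18 to -0.06. Neurod1 had 693, 620, 650 and 597 in mutant and 721, 699, 770 and 622 in wild-type brain. It was lower in the mutant in 4 of 4 litters, yet the groups overlapped, with a log2 fold change of -0.14 (SE 0.18). Bcl11b was likewise lower in 4 of 4 litters, with 4603, 3819, 4122 and 4462 in mutant against 5228, 4094, 4410 and 4797 in wild-type brain. The lowest wild-type library was below 3 of the mutant libraries, and the log2 fold change was -0.12. The within-litter exact permutation p was 0.125 for each of these genes, the smallest that 4 pairs can give, and the exact p over all 8 libraries was 0.143 for Neurod1 and 0.286 for Bcl11b. With littermates as a block, Bcl11b was at -0.12 (95% interval -0.19 to -0.05, unadjusted p = 0.00316, adjusted p = 0.1001, edgeR). Neurod1 was then at -0.13 (95% interval -0.25 to -0.01, unadjusted p = 0.0312, adjusted p = 0.236, edgeR).

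For the remaining genes, the Y130A and wild-type ranges overlapped. Sox2 had 1118, 1124, 1166 and 1100 in mutant against 1396, 1045, 1266 and 1265 in wild-type brain, so that the mutant libraries were closely grouped inside a wide wild-type range. Pax6 had 1282, 1277, 1282 and 987 against 1256, 1316, 1356 and 1093, with the lowest value of each group from the same litter. Eomes had 882, 942, 826 and 1031 in mutant brain and 1078, 921, 919 and 822 in wild-type brain. Tbr1 ranged from 1038 to 1477 in mutant and from 1114 to 1615 in wild-type libraries. Cux1 ranged from 5876 to 6066 against 6034 to 6397, with a narrow overlap and an exact permutation p of 0.0857. Otx1 had 89.6, 76.3, 87.8 and 89.6 in mutant and 119, 79.2, 74.3 and 128 in wild-type brain, where 2 wild-type libraries stood above all the others.

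The effects of S226A and Y130A on the 9 genes were also compared directly, as the interaction of allele and genotype. It called 0 members at an adjusted p below 0.05, against 0.0829% of all genes. Reln had the smallest unadjusted p, 0.0658, with a difference between the effects of -0.32 on the log2 scale (SE 0.17, 95% interval -0.67 to 0.02, adjusted p = 1, edgeR). In the fit of only the brain libraries it was -0.33 (95% interval -0.57 to -0.08, unadjusted p = 0.0117, adjusted p = 0.624), and with littermates as a block -0.34 (95% interval -0.53 to -0.15, unadjusted p = 0.0019, adjusted p = 0.223). For the other 8 genes the difference in the fit of all libraries ran from 0.04 for Tbr1 to 0.26 for Sox2, each with an interval that includes 0. Fitted on only the 8 libraries compared, the 9 genes had SEs of 0.0359 to 0.181 in Y130A brain, and their 95% intervals together spanned -0.62 to 0.51.

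**Figure D2:**
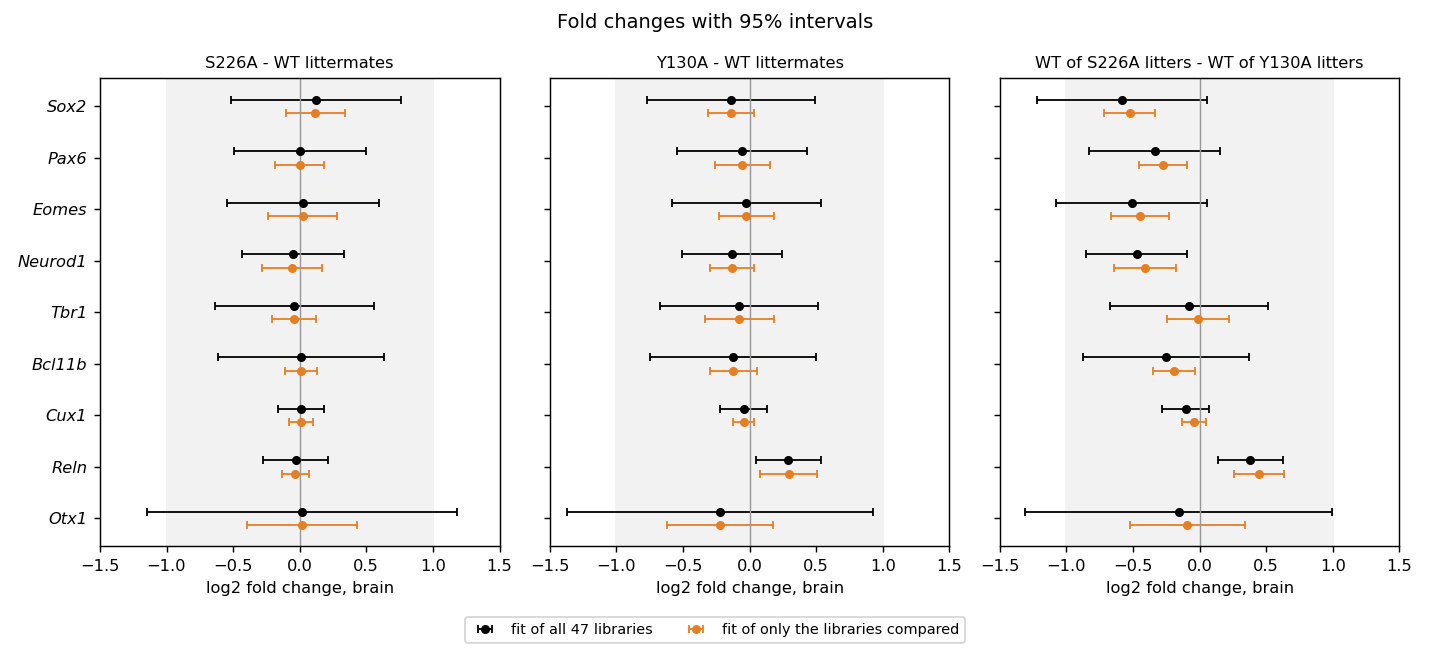
Log2 fold changes (x axes) of the 9 genes in brain with 95% intervals, for S226A and Y130A against wild-type littermates and for the wild-type brains of the S226A litters against those of the Y130A litters. Black marks the fit of all 47 libraries, orange the fit of only the libraries compared, and the grey band spans log2 fold changes from -1 to 1. Intervals include 0 for all genes in S226A and for all but Reln in Y130A, and in the wild-type comparison the orange intervals of Sox2, Pax6, Eomes, Neurod1 and Bcl11b lie below 0 and that of Reln above it.

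Sox2, Pax6, Eomes, Neurod1, Bcl11b and Reln had larger estimated differences between the wild-type brains of the S226A and the Y130A litters than in either mutant, while Tbr1 and Otx1 did not. Cux1 did so in the fit of all libraries but not in that of only the libraries compared. Normalized read counts of Sox2 were 828.6 ± 50.5 in wild-type brains of the S226A litters and 1243 ± 146 in those of the Y130A litters (SD, n = 4 each). Eomes had 656.5 ± 79.8 against 935.4 ± 106, and Neurod1 had 507 ± 88.1 against 703 ± 61.8. These progenitor and newborn-neuron genes were lower in every wild-type library of the S226A litters than in any of the Y130A litters, as was Cux1 by a small margin (5755 ± 155 against 6193 ± 160). Reln went the other way, with 16234 ± 459 against 12473 ± 1896, again with no overlap. Of all genes, 17.9% were lower and 7.36% were higher without overlap in this comparison, so that 4 and 1 of 9 members stand against a background of 25.3%.

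By the fit of all libraries, 0 of 9 members passed the standard criterion between the wild-type sets, which 5.98% of all genes met, and 0 passed the stringent one, which 0.101% met. The log2 fold changes were -0.59 for Sox2 (SE 0.31, adjusted p = 0.328, edgeR), -0.51 for Eomes (adjusted p = 0.341), -0.47 for Neurod1 (adjusted p = 0.148) and 0.38 for Reln (SE 0.12, adjusted p = 0.0506). When only the 8 wild-type brain libraries were fitted, 5 of 9 passed the standard criterion, against 24.8% of all genes (12.7% higher and 12.1% lower in the S226A litters). Sox2 (-0.52, adjusted p = 0.00132, edgeR), Eomes (-0.45, adjusted p = 0.00615), Neurod1 (-0.41, adjusted p = 0.0151) and Pax6 (-0.27, adjusted p = 0.0296) were lower in the S226A litters, and Reln (0.44, adjusted p = 0.00309) was higher. Tbr1, Bcl11b, Cux1 and Otx1 had values from -0.19 to -0.01 and were not called.

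The split of calls between the wild-type sets moved with the scaling. TMM with all libraries gave 249 genes higher and 761 lower in the S226A litters, and RLE size factors, another scaling, gave 483 higher and 380 lower, with the median of all genes moving from -0.06 to 0.00. Reln passed the standard criterion under RLE size factors (adjusted p = 0.0263, edgeR; 5.11% of all genes) and under DESeq2 (adjusted p = 0.00752; 9.6% of all genes), and Sox2, Eomes and Neurod1 kept their direction under both. These 2 sets of litters also differed in depth by the totals given above, and their founders, litters and libraries differed throughout, so that litter set and depth cannot be told apart.

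Cells neighbouring these steps in the lineage were examined through lists of marker genes. In S226A brain none was called by the standard criterion among 17 tested genes of radial glia, 7 of intermediate progenitors, 9 of newborn neurons, 11 of deep layers, 9 of upper layers and 8 of Cajal-Retzius cells. The medians of their log2 fold changes lay between -0.04 for upper layers and 0.03 for radial glia and intermediate progenitors. At the edges were Nhlh1, a factor of newborn neurons, at -0.20, Emx2, which patterns cortical areas, at -0.19, and Cplx3, a subplate gene, at 1.02 with an SE of 0.85. The same lists had 0 calls in Y130A brain, with medians from -0.19 for intermediate progenitors to -0.01 for Cajal-Retzius cells. Here Sox3, a relative of Sox2, was at -0.36, Neurod2, a factor downstream in the same lineage as Neurod1, at -0.27, and Gli3, which patterns the dorsal telencephalon, at 0.09.

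The reelin pathway was read from ligand to effector. Reelin binds the receptors encoded by Vldlr and Lrp8 on migrating neurons, and the adaptor encoded by Dab1 passes the signal on. None of its 10 tested genes was called in either mutant. In S226A brain the lowest was Dab1 at -0.09 and the highest was Crkl, which encodes an adaptor downstream of Dab1, at 0.01. In Y130A brain Reln was the highest at 0.29 and the lowest was Rapgef1, which encodes an exchange factor recruited by Crkl, at -0.05. Among the other Cajal-Retzius markers Lhx5, a factor of these cells, was lowest at -0.21.

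Territories outside the cortex that also use these genes gave 0 standard calls as well. The 13 tested genes of the ganglionic eminences and interneurons had medians of -0.04 in S226A and -0.19 in Y130A brain, and the 11 of cerebellum and hindbrain had 0.09 and -0.04. Dlx2, a factor of ventral progenitors, was at -0.39 in S226A brain with no overlap between the groups, and 1.24% of all genes were lower without overlap. The 6 genes of Otx1 and its partner factors had medians of -0.01 and -0.19, and Otx2, the close relative of Otx1, had mean normalized read counts of 533 in S226A and 520 in wild-type brain, and 642 in Y130A and 571 in wild-type brain.

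Among markers of other cell types, lists of astrocytes, the oligodendrocyte lineage, endothelium, erythroid cells, choroid plexus and meninges had 0 standard calls in either mutant, and microglia had 0 in Y130A brain. In S226A brain, 5 of 6 microglial genes were lower by the standard criterion, which called 0.184% of all genes lower, among them Cx3cr1, the fractalkine receptor, at -2.21 and P2ry12, a purinergic receptor of resting microglia, at -2.16. Their summed normalized read counts were 603 to 752 in S226A and 1754 to 2073 in wild-type brain. The summed counts of the 9 members overlapped in the same libraries, at 28848 to 31773 and 29413 to 30607. In the Y130A litters, pituitary markers summed to as much as 2868 in mutant and 3912 in wild-type libraries but to at most 139 in the S226A litters, and 0 lung identity genes were called in Y130A brain although their sum was 584 to 1109 against 539 to 632. Squamous epithelium genes summed to 256 to 563 in Y130A and 289 to 1449 in wild-type brain, with 6 of 6 estimates below 0 and 0 called. The part of such tissue in the values of Reln was not tested.

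Wild-type brain expressed the members over a range of levels when counts were set per length. The wild-type brains of each litter set are given apart, since the sets differed. Per kilobase of exon, normalized counts in the S226A litters were 684 ± 19.3 for Reln, 478 ± 25.7 for Bcl11b and 403 ± 24.6 for Sox2 (SD, n = 4), with no overlap between neighbours. In the Y130A litters the order was Sox2 at 604 ± 70.8, Bcl11b at 571 ± 60.4 and Reln at 525 ± 79.9 (n = 4), which overlapped one another. Cux1 came next in both sets, at 287 ± 7.72 in the S226A and 309 ± 8.002 in the Y130A litters, above Tbr1 in every library of its set. Tbr1 had 234 ± 27.4 and 246 ± 38.4, Neurod1 186 ± 32.3 and 258 ± 22.6, and Eomes 158 ± 19.2 and 225 ± 25.5, and each overlapped its neighbour. Pax6 at 84.9 ± 9.02 and 107 ± 9.91 lay below these in every library, and Otx1 at 16.6 ± 2.40 and 18.48 ± 5.06 lay below Pax6 in every library.

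Brain was then set against lung and liver of wild-type embryos to describe levels of the genes across tissues. The members were chosen as genes of cortical neurons, so that higher levels in brain were likely beforehand and the counts of calls are descriptive. Some had no read in wild-type lung or liver and passed the filter on low counts through brain. Against lung, 8 of 9 members were called by the stringent criteria, all higher in brain, where 48.8% of all genes were called and 23.1% were higher. Neurod1 had no read in any of the 7 wild-type lungs, so that its level in brain, 605 ± 126, was at least 124.5-fold higher, taking 3 reads per library as the floor. Sox2, which also marks airway epithelium, had 106 ± 20.9 in lung and 1036 ± 243 in brain. Cux1 was the exception, with a lower level in brain, 5974 ± 276, than in lung, 11099 ± 2567 (log2 fold change -0.85, SE 0.06, adjusted p = 8.09e-16, edgeR), a call by the standard criterion that 84% of all genes also met.

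Against liver, 7 of 9 were called by the stringent criteria and all were higher in brain, where 56.1% of all genes were called and 29.2% were higher. Pax6 had no read in any of the 8 wild-type livers and was at least 176-fold higher in brain, and Otx1 likewise at least 14.9-fold. Sox2 had reads in 1 wild-type liver, at a normalized read count of 23.3. Cux1 was higher in brain by 0.88 on the log2 scale and stayed below the fold limit.

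Reln, like Cux1, was not highest in brain. Its normalized read count was 21800 ± 1974 in wild-type liver (SD, n = 8), 14354 ± 2382 in wild-type brain (n = 8) and 904 ± 259 in wild-type lung (n = 7). Liver libraries all lay above brain libraries, with a log2 fold change of -0.61 for brain against liver (SE 0.09, adjusted p = 1.77e-08, edgeR), past the standard criterion that 87.3% of all genes met. Wild-type brain and liver came from the same embryos, and the fit did not pair them. Hepatic stellate cells are a known source of reelin in liver, and of the 8 other genes only Cux1, at 3252 ± 179, had a mean above that of Bcl11b, 13.3 ± 14.1, in wild-type liver.

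**Figure D3:**
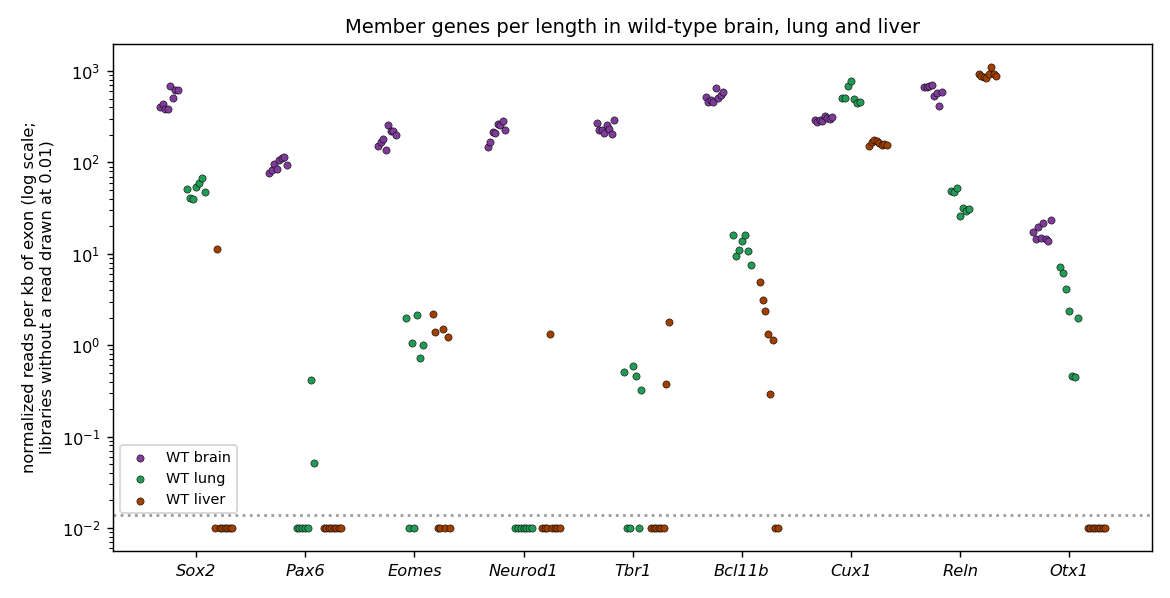
Normalized reads per kilobase of exon (y axis, log scale) of the 9 genes (x axis) in single wild-type libraries of brain, lung and liver. Libraries without a read are drawn at 0.01, under the dotted line. Reln is highest in liver, Cux1 is highest in lung, and the other genes are highest in brain.

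Since Reln was higher in liver than in brain, its level was followed through the mutants in all 3 tissues, a choice made after its values were seen. In liver, Reln had 17076, 14575, 16577 and 19015 in S226A embryos and 21808, 21116, 20463 and 19690 in wild-type littermates. Every mutant library lay below every wild-type one, as in 5.18% of all genes, and the exact permutation p was 0.0286, the smallest possible. The log2 fold change was -0.31 (SE 0.12, adjusted p = 0.0984, edgeR), and with littermates as a block it was -0.30 with an adjusted p of 0.0246. The standard criterion was met by 11.7% of all genes in the fit of all libraries. In fits of only these 8 libraries it was met by 8.28% without the block, where Reln had an adjusted p of 0.0639, and by 10% with it.

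Y130A livers had Reln at 17556, 20517, 20433 and 20890 against 21849, 26275, 22079 and 21123 in their wild-type littermates. These groups did not overlap either, again with the mutant lower, which held for 1.19% of all genes. The exact permutation p was 0.0286, and without TMM the groups overlapped and it was 0.0571. The log2 fold change was -0.20 (adjusted p = 0.692, edgeR, where 0.272% of all genes passed 0.05), and without the wild-type library at 26275 it was -0.13. In lung, Y130A libraries at 828, 853, 961 and 910 lay above the wild-type ones at 759, 699 and 728, with a log2 fold change of 0.28 (SE 0.13, adjusted p = 1), where 1.61% of all genes were higher without overlap. S226A lungs at 1239, 1116, 1139 and 874 overlapped their wild-type littermates at 1164, 1122, 1238 and 618. The estimate for Y130A was thus above 0 in brain and lung and below 0 in liver, a difference between tissues that was not tested.

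**Figure D4:**
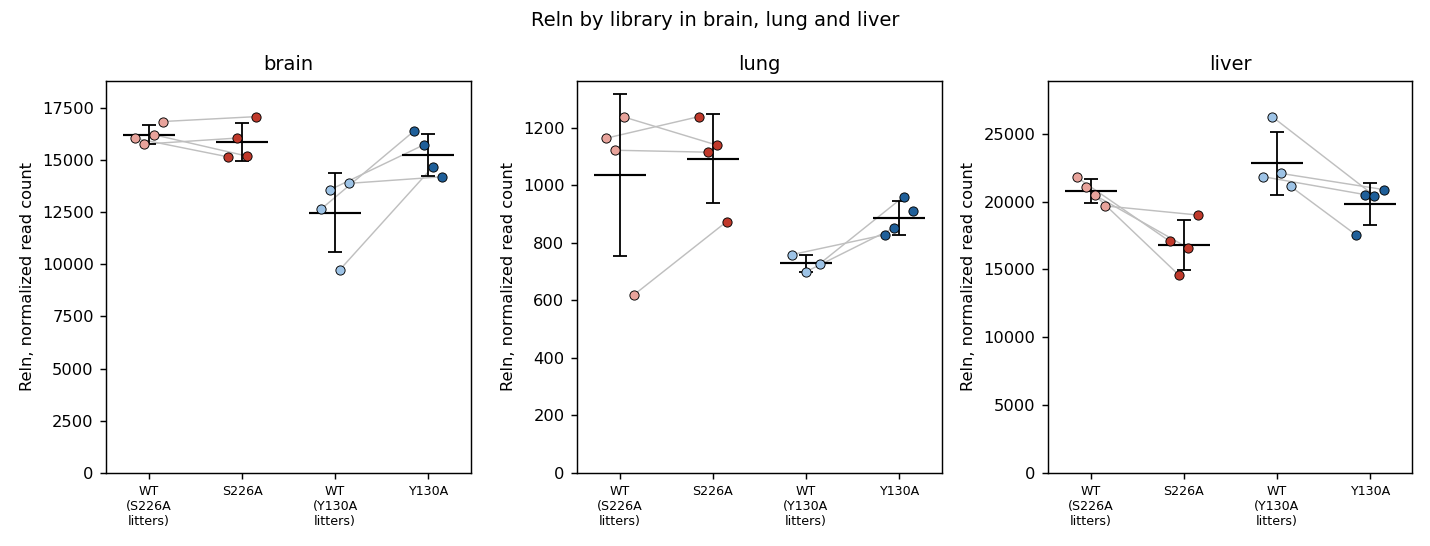
Normalized read counts of Reln (y axes, from 0, with a scale for each tissue) in single libraries of brain, lung and liver by genotype and litter set (x axes). Lines join littermates and bars give mean ± SD (n = 4, or 3 for wild-type lung of the Y130A litters). Mutant libraries lie above all wild-type littermates for Y130A in brain and lung, and below them for both alleles in liver.

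Otx1 was also followed in lung, where it was rare. Wild-type lungs of the S226A litters had 28, 25, 15 and 8 reads, or normalized read counts of 38.8, 33.2, 22.2 and 12.95. S226A lungs had 1, 0, 4 and 0 reads, or 1.22, 0, 5.50 and 0, each below every wild-type littermate. In 1.72% of all genes the S226A lungs were lower in this way. The log2 fold change was -3.96 (SE 0.85, adjusted p = 0.00944, edgeR), a stringent call that 0.302% of all genes shared and 0.154% in this direction, and the exact permutation p was 0.0286, the smallest possible. The stringent call was kept without replicate 2 or replicate 4 of the wild-type lungs and was lost without any 1 of the other 6 libraries, in 5 of them by the adjusted p and without S226A replicate 3 by the limit on the SE. The adjusted p ranged from 0.00416 to 0.0499 over these fits (edgeR). With littermates as a block the value was -4.08 and the adjusted p 0.241 (edgeR).

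The Y130A lungs had 23, 0, 6 and 17 reads and their wild-type littermates 4, 4 and 18, although these libraries were deeper. As normalized read counts, these were 11.3, 0, 4.14 and 11.6 against 2.52, 2.41 and 10.7, which overlapped (log2 fold change 0.39, adjusted p = 1, edgeR, where 0.0178% of all genes were called). Wild-type lungs of the S226A litters had more Otx1 than those of the Y130A litters, at 26.8 ± 11.5 (n = 4) against 5.21 ± 4.76 (n = 3), with a log2 fold change of 2.34 (SE 0.73, adjusted p = 0.0215, edgeR, but 0.106 and 0.102 without replicate 1 or 2 of the Y130A litters, 0.0923 in the fit of only these libraries and 0.1102 in that of only the lung libraries), in a comparison where 20.1% of all genes passed the standard criterion and 10.8% were higher. The S226A lungs at 1.68 ± 2.61 (n = 4) overlapped the lower of these wild-type groups. The interaction of allele and genotype in lung was -4.34 for Otx1 (SE 1.14, adjusted p = 0.111, edgeR), not past the standard criterion that 0.308% of all genes met.

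Genes with the profile most like that of Otx1 over the 15 lungs were Pax5, a factor of B lymphocyte identity, at a Pearson r of 0.82 (0.94 within the S226A set and 0.51 within the Y130A set) and Adam33, a metalloprotease of mesenchyme, at 0.81 (0.88 and 0.78), with libraries that share litter set and depth. Pax5 had 7, 23, 6 and 7 reads in the wild-type lungs of the S226A litters and 0, 0, 1 and 0 in S226A lungs. Of 8 genes of the B lineage, 3 were lower in S226A lung by the standard criterion, which called 1.02% of all genes lower, among them Pax5 and Siglecg, and 3 had estimates above 0, up to 0.86 for Vpreb1, a gene of pre-B cells. Of 6 genes listed for microglia, which macrophages share in part, 3 were lower by the stringent criteria in the same lungs, which called 0.154% of all genes lower: Csf1r at -1.13, Cx3cr1 at -1.25 and Fcrls at -1.76. Their list summed to 2357 to 2582 in S226A and 3745 to 4372 in wild-type lung. The summed count of the B-lineage list was 924 to 976 in S226A and 863 to 1167 in wild-type lung, most of it Ebf1, which is also expressed in stroma. Otx2, a close relative found at higher levels in these brains, had at most 2 reads in any lung, and the part of B-lineage cells or macrophages in the level of Otx1 was not tested.

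**Figure D5:**
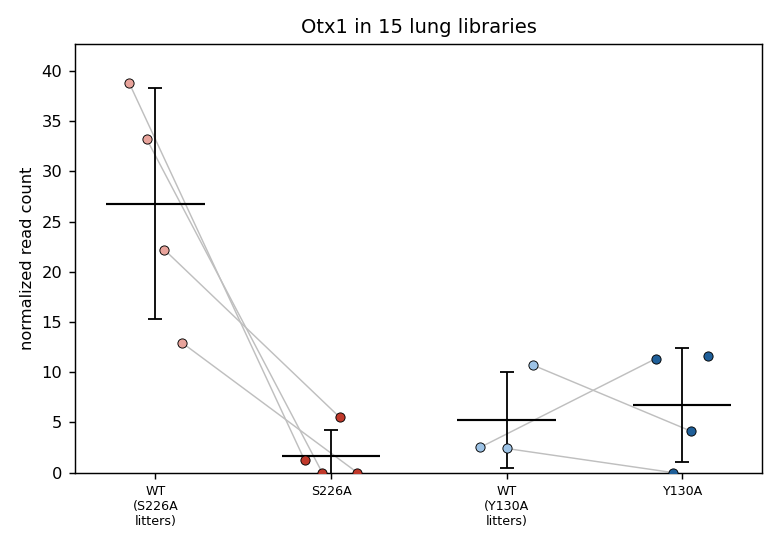
Normalized read counts of Otx1 (y axis) in single lung libraries by genotype and litter set (x axis). Lines join littermates, and bars give mean ± SD (n = 4, or 3 for wild-type littermates of Y130A). S226A lungs lie below all their wild-type littermates, whereas Y130A lungs overlap theirs.

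Variation of the 9 genes with one another was examined over the 16 brain libraries in 36 pairs. Because the litter sets formed separate clusters, correlations were read within each set of 8 libraries. Pax6 and Neurod1 had a Pearson r of 0.514 in the S226A set (exact permutation p = 0.197, adjusted over 36 pairs 0.623) with a Spearman rho of 0.619 (exact p = 0.115, adjusted 0.56). In the Y130A set they had r = 0.747 (exact p = 0.0236, adjusted 0.17) and rho = 0.714 (exact p = 0.0576, adjusted 0.433), and r was 0.573 without the 2 libraries farthest from the median of Pax6. Tbr1 and Otx1, both genes of layer 6 neurons, had r = 0.806 in the Y130A set (exact p = 0.0188, adjusted 0.169) but -0.101 in the S226A set (exact p = 0.812, adjusted 0.949). No pair passed an adjusted p of 0.05 within either set, and 18 of 36 pairs had the same sign in both.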

How the data were processed

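RNA of embryonic brain, lung and liver was sequenced by the authors in 47 libraries, and the deposited values are counts of reads per gene, without normalization. Per the labels and methods, reads were trimmed with Trim Galore 0.6.5, aligned to GRCm38 with STAR 2.6.0b and tested by the authors with DESeq2. All 47 columns matched a sample. Gene positions and exon lengths came from GENCODE M21, which matched 20424 of 20456 genes.

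Counts of all libraries were fitted with edgeR 4.0.16 (R 4.3.3) by quasi-likelihood, with 1 coefficient per group, TMM scaling and a filter on low counts (at least 10 in enough libraries and 15 in total). The SE was derived from the estimate and its F statistic. Normalized read counts are TMM-scaled counts per library brought to 29553745 reads. Exact permutation tests were two-sided, on log2(normalized count + 1), and correlations were tested by exact enumeration in 8 libraries (Python 3.11.15, scipy 1.17.1). The scripts were tested on simulated data.

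Alternatives were DESeq2 1.42.0, RLE size factors, no filter, only the libraries compared, litter as a replicate block, an adjusted p below 0.05 alone, other pseudocounts, no TMM and leaving out each library. Fits of only the brain or only the lung libraries, and the mutant liver comparisons of Reln, were chosen after seeing the data. The labels give litter numbers, which pair mutant and wild-type littermates: residuals of brain littermates correlated at 0.170 to 0.311 in the Y130A litters and -0.065 to 0.075 in the S226A litters. Chi-square per degree of freedom between replicates was at least 4.17, so that no library was a copy of another. Nothing in the labels shows that a tissue of an embryo was sequenced more than once. Most embryos gave libraries of several tissues, which the fits did not pair. P-values of the fit of all libraries use a spread between embryos that is shared over brain, lung and liver. Those of the narrower fits use the spread between the embryos fitted.

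The 9 genes and all lists were chosen with earlier results of these data known. The rule for named genes was every member, Daxx and Otx2, and up to 3 genes most alike by Pearson r. In each list it named the genes past the standard criterion in either mutant brain, or else those with the lowest and highest log2 fold change. For Otx1 it also took genes of the lists of other cell types in lung. Some genes that this rule names are not reported here. At 64 to 222 reads per brain library, Otx1 had the lowest precision among the members. A wild-type lung of litter 3069 was not analysed here.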

Additional observations from a re-analysis of the deposited data

Results flagged for a closer look

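In 2 of 39 groups of 4 libraries examined, 1 library stood far from the other 3 by Dixon's criterion, which chance meets in about 1 in 20 groups. Pax6 had a normalized read count of 987 in Y130A brain replicate 4, against 1277 to 1282 in the other Y130A brains. Its wild-type littermate was also the lowest of its group, at 1093. Otx1 had 76.3 in Y130A brain replicate 2, against 87.8 to 89.6 in the others, which lie close together at these low counts.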

How the results depend on the processing

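The number of members called by the stringent criteria in brain was 0 for both mutants under every alternative run, with all genes called as follows. In S226A brain, 21 genes were called, with 16 in the fit of only the libraries compared, 13 in that fit with litter as a replicate block, 32 with DESeq2, 41 with an adjusted p below 0.05 alone and 13 to 19 without 1 library. In Y130A brain, 0 genes were called, with 1 at an adjusted p below 0.05 alone, 1 without the filter on low counts, 2 with DESeq2, 0 in the fit of only the libraries compared, 3 in that fit with the replicate block (97 at an adjusted p below 0.05 alone) and 4 in the fit of only the brain libraries. Unadjusted, 375 genes had a p below 0.05 in edgeR. In S226A lung, Otx1 at -3.96 was called with adjusted p from 0.00416 to 0.0499 and values from -5.66 to -3.54 without 1 library, keeping the call only without replicate 2 or 4 of the wild-type lungs, and it had -4.08 (adjusted p = 0.241) under the block and -3.96 (adjusted p = 0.178) in the fit of only the lung libraries. It kept the call with DESeq2 (adjusted p = 0.00015), RLE size factors (0.00874) and no filter (0.00998). It failed the filter in the fit of only the libraries compared. In Y130A lung it had -0.37 under the block, against 0.39, and 0.00 to 1.44 without 1 library. Its interaction was called with DESeq2 at -4.48 (adjusted p = 0.00443), and ranged from -6.05 to -3.93 without 1 library. Under the pairing by litter, 0 members had an exact permutation p below 0.05 in Y130A brain, against 1, but 4 pairs cannot give a p below 0.125. Over all 16 libraries 13 of 36 pairs of members correlated at an adjusted p below 0.05, with 6 without the 2 farthest libraries, 8 without TMM, 0 in the S226A set and 0 in the Y130A set.

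Leaving out 1 library turned the sign, read at 2 decimals, of the values below in 31 fits, to at most 0.095 in size. In S226A brain, where Pax6 at 0.00 lay on either side of 0 (-0.069 to 0.073), these were Sox2 (-0.017 to 0.19), Eomes (-0.086 to 0.13), Neurod1 (-0.14 to 0.031), Tbr1 (-0.090 to 0.043), Bcl11b (-0.043 to 0.046), Cux1 (-0.013 to 0.031) and Otx1 (-0.095 to 0.14). In Y130A brain they were Pax6 (-0.12 to 0.029), Eomes (-0.083 to 0.052) and Tbr1 (-0.16 to 0.019). In the interaction they were Pax6 (-0.026 to 0.13), Eomes (-0.062 to 0.16), Neurod1 (-0.0083 to 0.17) and Tbr1 (-0.059 to 0.12), and between the wild-type sets Tbr1 (-0.16 to 0.020). Reln stayed above 0 in Y130A brain (0.19 to 0.35) and below 0 in S226A liver (-0.37 to -0.24). In S226A liver the block brought Reln past the standard criterion (adjusted p = 0.0246, against 0.0639 in the same fit without it). Beside this call and that of Otx1 in S226A lung, no call of a member in brain or lung differed between the fit with the block and that of all libraries. Pax6 passed the standard criterion in S226A liver in the fit of all libraries (adjusted p = 0.0434), on reads in 2 of 4 mutant livers, and failed the filter in the blocked fit. With DESeq2, 3 of 9 members passed this criterion in S226A liver (14.8% of all genes), against 1 in the fit of all libraries. In Y130A liver 2 of 9 passed with DESeq2 (1.66% of all genes), against 0. Without TMM, Reln in Y130A liver had an exact permutation p of 0.0571, against 0.0286. The cause of these changes was not tested.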

Other observations

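Genes whose levels followed those of the members over the 16 brain libraries are given as a description, since these libraries share litter set, depth and genotype. Sox2 was most like Gas1, which encodes a membrane protein that binds sonic hedgehog, with a Pearson r of 0.97 over all libraries, 0.92 within the S226A set and 0.87 within the Y130A set. Bcl11b was most like Neurod2, a factor of maturing cortical neurons, with 0.95, 0.81 and 0.95. Otx1 was most like Ccnd2, a cyclin of dividing progenitors, with 0.79, 0.84 and 0.84. Reln was most like Cacna1e, which encodes a subunit of a voltage-gated calcium channel, with 0.97, 0.66 and 0.98.

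Rare reads of brain genes were found in liver. Sox2 had 28 reads in the Y130A liver of litter 2848 and 12 in a wild-type liver of the S226A litters, 2 in the S226A littermate of the latter and 0 in the other livers. Pax6 had 4 and 9 reads in 2 S226A livers, 0 in the other 2 and 0 in all wild-type ones, which passed the standard criterion (adjusted p = 0.0434, edgeR), as did 11.7% of all genes in that comparison. In lung, Eomes had 1, 3, 0 and 0 reads in Y130A and 14, 5 and 7 in wild-type libraries of the same litters. These groups did not overlap, and 2.55% of all genes were lower in this way. Its log2 fold change was -2.87 (adjusted p = 0.819, edgeR), and in S226A lung it was -2.94 (adjusted p = 0.294, edgeR), neither of them a call.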
